A study of Cavia porcellus with 24 samples.

Results

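The region described here is a window of scaffold DS562863.1 of the guinea pig genome build cavPor3, from position 1455000 to 1497000, which holds the island assigned to *HM13* and *MCTS2*. All listed cytosines of both strands in the window were taken. There were 78 of them among the 3233055 cytosines listed in either tissue, with 72 listed in the table of the hippocampus (HPC), 70 in that of whole blood and 64 in both. The window was chosen from earlier results of the same tables: a partly methylated core from 1475798 to 1476163, in which methylation was lower after glucocorticoid exposure in both tissues. The level of the core and its difference between exposures are therefore given as a description, and where cytosines of the core that passed a test between exposures are counted, the count restates that choice.

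*HM13* encodes signal peptide peptidase, an aspartyl protease of the endoplasmic reticulum membrane that cuts signal peptides left in the membrane. *MCTS2* is a retrogene, an intronless copy of a gene that was reinserted into the genome through its RNA. In the mouse it lies within an intron of the *HM13* ortholog, its promoter is methylated on the maternal allele, and it is transcribed from the paternal allele, which goes along with the use of different polyadenylation sites of the host gene. A region that is imprinted in this way carries methylated and unmethylated copies in the same cell, so that its level in a pool of cells lies between that of a fully methylated and that of an unmethylated sequence, in many tissues alike.

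DNA methylation was measured by reduced representation bisulfite sequencing (RRBS), in which the genome is cut with MspI so that the reads gather in CpG-rich sequence. Hartley guinea pig mothers received betamethasone, a synthetic glucocorticoid (sGC), at 1 mg/kg in 3 courses of injections, on days 40 and 41, 50 and 51, and 60 and 61 of gestation, or saline as the control (Con). HPC and blood were taken on postnatal day 14 from 12 female offspring, each from another litter, which gave 24 samples in 4 groups of 6. The deposited tables hold 1 pool per group, the reads of its 6 animals added together, so that no spread between animals could be given for any value below. Both tissues are mixtures of cell types, and in a pool a change in the mix and a change of level within a cell type cannot be told apart. Litter, batch, and the allele or parent a read came from, could not be separated either.

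The gene names were given by the study, which attached *HM13* to this scaffold and placed the island in an intron of that gene and in the promoter of *MCTS2*. The RefSeq names of a later guinea pig assembly include both genes. No annotation of cavPor3 was used here, so that exons, introns and promoters within the window were not analysed.

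The listed cytosines of the window were gathered into clusters wherever neighbours lay at most 200 bp apart, which gave 5 clusters separated by stretches with no listed cytosine. The first ran from 1461032 to 1461241 and held 5 cytosines. The next held 5 cytosines from 1473940 to 1474014, and a lone minus-strand cytosine, listed in HPC only, followed at 1474295. The core held 34 cytosines over 366 bp, 19 on the plus and 15 on the minus strand. These belonged to 21 CpGs, 13 of which had both strands listed, and all 34 were listed in both tissues. The last cluster began at 1496696 and held 33 cytosines of 21 CpGs up to the limit of the window. Between the first and the second cluster lay 12698 bases, between the lone cytosine and the core 1502, and between the core and the last cluster 20532.

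The core alone was partly methylated in all 4 pools, and it was flanked by methylated sequence below and unmethylated sequence above. In the core, 2910 of 4959 readings (58.7%) were methylated in the sGC pool of HPC and 2922 of 4025 (72.6%) in the Con pool. In blood, the core was methylated at 3259 of 5399 readings (60.4%) in sGC and at 3241 of 4357 (74.4%) in Con. A reading is 1 cytosine in 1 read, so that a read that spans several cytosines was counted several times.

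The cluster next to the core on its lower side was close to fully methylated. Its hippocampal level was 95.6% in sGC (283 of 296 readings) and 93.1% in Con (244 of 262). In blood it was 96.4% (345 of 358) and 95.3% (224 of 235). The lone cytosine at 1474295 was methylated in 11 of 11 hippocampal reads in sGC and in 15 of 17 in Con.

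The cluster at the upper end of the window was almost free of methylation in every pool. Of the HPC readings, 33 of 3832 (0.861%) were methylated in sGC and 29 of 3677 (0.789%) in Con, and of the blood readings, 39 of 4373 (0.892%) and 23 of 3629 (0.634%). Its most methylated cytosine in any pool, the minus-strand cytosine at 1496815, stood at 5 of 140 reads in the Con pool of the hippocampus (3.57%, 95% Wilson interval 1.53 to 8.09). The same unmethylated sequence went on past the limit of the window, where the next cytosines, from 1497010 to 1497488, were at 1.30% and 1.51% in HPC and at 1.29% and 0.4% in blood, sGC before Con.

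**Figure D1:**
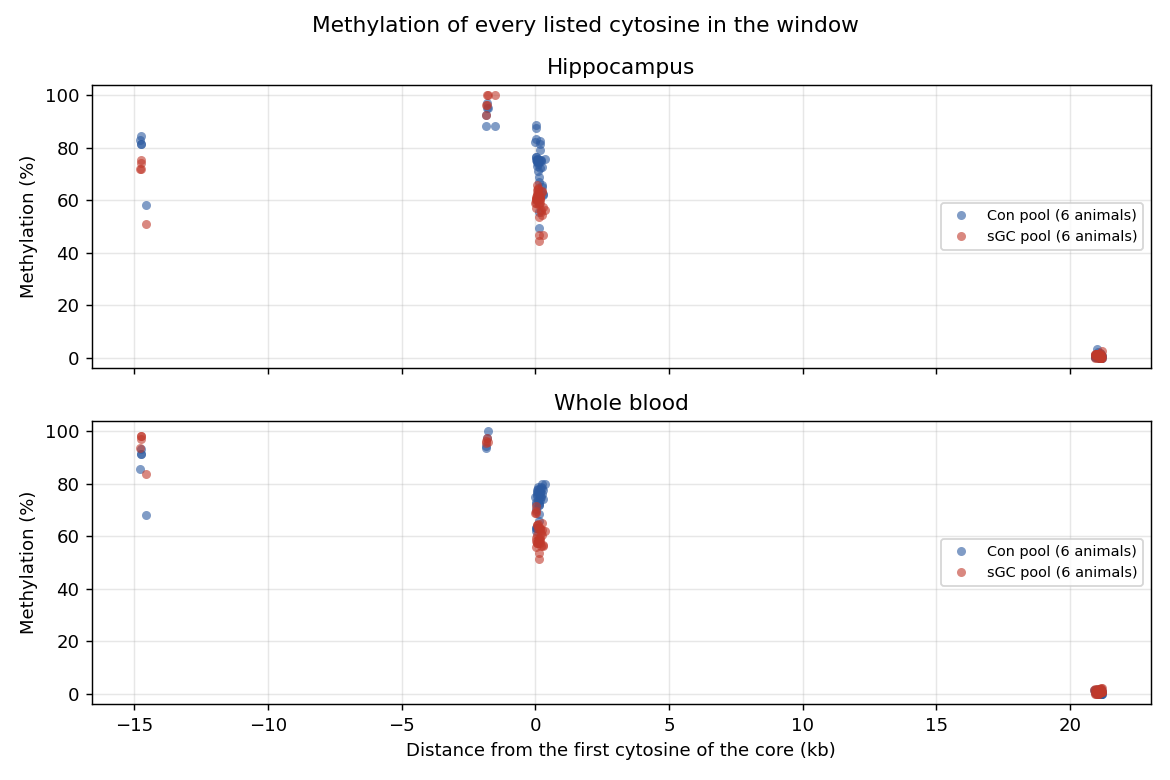
Methylation level (y axis, %) of each listed cytosine of the window against its distance in kb from the first cytosine of the core (x axis), in HPC (upper panel) and whole blood (lower panel), with the sGC pool in red and the Con pool in blue. The core at 0 kb sits at 44.7% to 88.9%, the cluster on its lower side above 88% and the cluster at the upper end below 4%.

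The positions at which the intermediate level begins and ends were sought with the strands of a CpG and the exposures added together. A CpG counted as intermediate at 20% to 80% in both tissues, and all 21 CpGs of the core did so, from the one at 1475798 to the one at 1476162, whose minus-strand cytosine at 1476163 is the last of the core. A single CpG of the flanks, at 1461240 in the first cluster, was intermediate by the same limits, at 54.9% in HPC and 76.9% in blood. The other 4 CpGs of that cluster stood at 75.7% to 78.2% in HPC but at 89.6% to 95.7% in blood. The first CpG of the core stood at 70.8% in HPC and 71.4% in blood, and the last at 64.3% and 70.2%. The nearest CpG listed in both tissues below the core, at 1474014, stood at 97.4% and 97.3%. The nearest one above the core, at 1496706, stood at 0.983% and 0.699%. Between 1474014 and the core only the lone HPC cytosine, at 92.9% with the exposures added, was listed, and between the core and the last cluster no CpG was, so that no taper was seen at either end of the core, and the borders were placed only to within the stretches without listed cytosines.

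Within the core, coverage ran from 54 to 296 reads per cytosine and pool, against medians over all listed cytosines of 93 (sGC) and 86 (Con) in HPC and 98 and 79 in blood. The levels of the 34 cytosines lay between 44.7% and 65.8% in the sGC pool of the hippocampus, with an SD across cytosines of 5.03, and between 49.7% and 88.9% in the Con pool, with an SD of 8.15. In blood they lay between 51.3% and 71.4% (SD 4.61) in sGC and between 61.96% and 79.8% (SD 5.06) in Con. The hippocampal Con pool thus varied most along the core.

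1 CpG stood out below its neighbours. At the CpG at 1475921, with exposures and strands added together, the level was 48.6% in HPC and 58.9% in blood, the lowest of the core in both tissues when the exposures were added. The next lowest were 55.7% at 1476092 in HPC and 60.2% at 1475845 in blood. The dip was seen on both strands, but in the Con pool of blood 4 CpGs near the lower end, from 1475808 to 1475845, were lower, at 63.2% to 66.4% against 67.4% at 1475921. The plus-strand cytosine was methylated in 71 of 159 reads (44.7%) in sGC and 61 of 110 (55.5%) in Con in HPC, and in 100 of 187 (53.5%) and 85 of 129 (65.9%) in blood. The minus-strand cytosine, at 1475922, was at 46.8% and 49.7% in HPC and at 51.3% and 68.6% in blood.

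**Figure D2:**
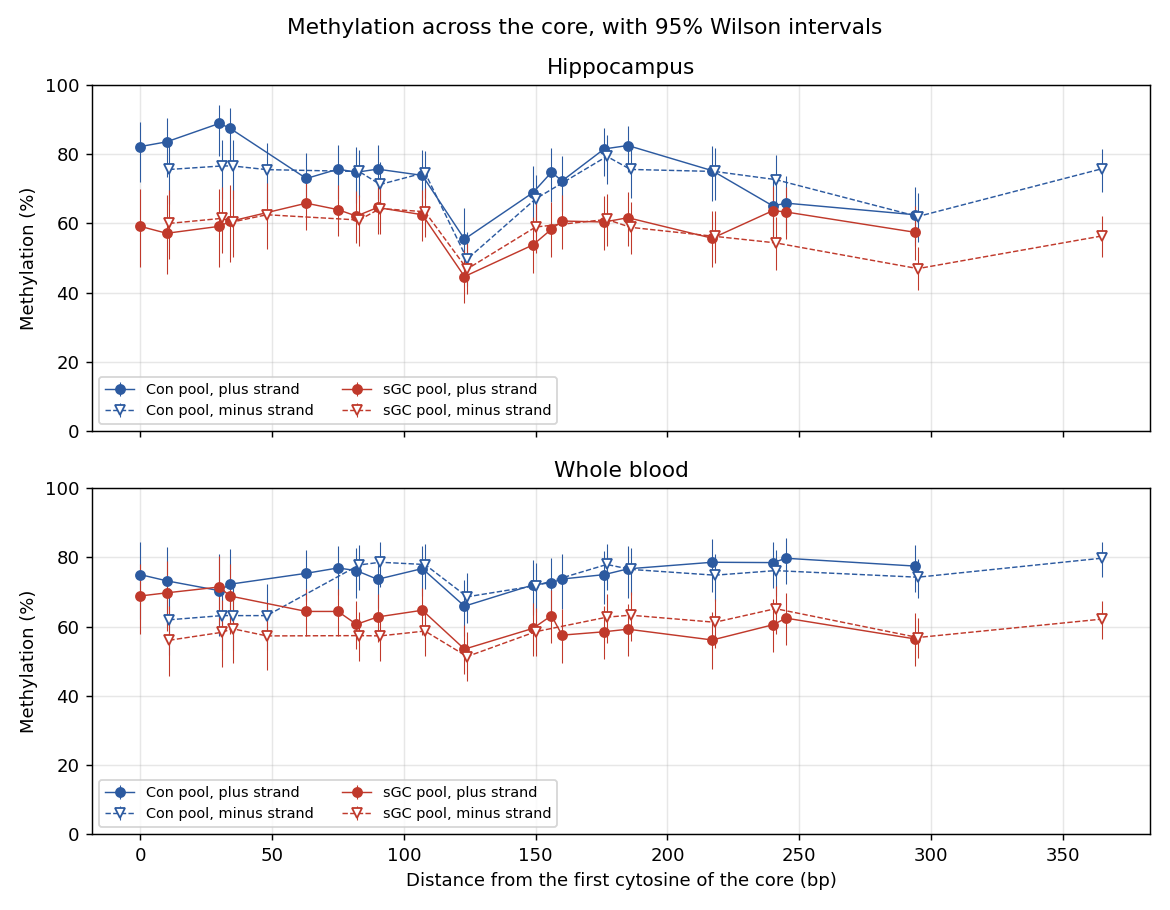
Methylation level (y axis, %) of the 34 cytosines of the core against the distance in bp from the first (x axis), with 95% Wilson intervals for counting error as bars, filled circles for the plus strand and open triangles for the minus strand, sGC pools in red and Con pools in blue. The sGC pools run nearly level at about 60%, the CpG at 1475921 dips below its direct neighbours in both tissues, and the hippocampal Con pool is highest at the lower end, where its plus strand reaches 88.9%.

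The difference of the core, sGC less Con, was -13.9 percentage points in HPC and -14.0 in blood. These are the values from which the region was chosen. The level was lower at 34 of 34 cytosines in HPC, ranging from -29.7 to -1.35 with a median of -15.1. It was lower at 33 of 34 in blood, from -22.5 to 1.06 with a median of -13.3. Over all listed cytosines the median difference was 0.621 in HPC and 0.435 in blood, and 43.6% and 45.8% of them were lower in sGC. A level at least 5 points lower was seen at 31 of the 34 cytosines in HPC, where 11.4% of all listed cytosines had one, and at 29 in blood, where 11.9% had one.

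The profile of the difference along the core was not alike in the 2 tissues. At the lower end, the 4 plus-strand cytosines from 1475798 to 1475832 shared nearly the same reads, and their differences averaged -26.5 points in HPC and -2.99 in blood. The first of them, at 1475798, was methylated in 42 of 71 reads (59.2%) in sGC and 60 of 73 (82.2%) in Con in HPC, which differed by -23.0 (Newcombe 95% interval -36.6 to -8.19). In blood it was methylated in 53 of 77 reads (68.8%) and 42 of 56 (75%), a difference of -6.17 (-20.7 to 9.53). The blood interval includes 0 and overlaps that of the hippocampus.

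The cytosine with the largest difference in HPC was also the only one that was not lower in blood. It was the plus-strand cytosine at 1475828, with 42 of 71 reads methylated (59.2%) against 64 of 72 (88.9%) in HPC, sGC before Con, and 55 of 77 (71.4%) against 38 of 54 (70.4%) in blood. On the minus strand of the same stretch, the 4 cytosines from 1475809 to 1475846 averaged -14.98 points in HPC and -5.10 in blood. The mean difference was smaller in size in blood on both strands at this end. Their reads come from the same pools, so that the strands are not replicates of the exposure. The test of the change between the tissues is given below.

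Toward the upper end the order turned on the plus strand. The 3 plus-strand cytosines from 1476038 to 1476092 averaged -3.00 points in HPC and -18.8 in blood. At 1476038 the hippocampal reads were methylated at 100 of 157 (63.7%) in sGC and 80 of 123 (65.04%) in Con, which differed by -1.35 (Newcombe 95% interval -12.4 to 9.94). The blood reads were methylated at 95 of 157 (60.5%) and 113 of 144 (78.5%), a difference of -18.0 (-27.8 to -7.56). The minus strand did not share this pattern, since its last 2 cytosines averaged -17.2 points in HPC and -17.5 in blood. The last of them, at 1476163, was the deepest of the core and differed by -19.4 and -17.6.

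The middle of the core was lower in sGC in both tissues. The 6 plus-strand cytosines from 1475861 to 1475921 averaged -10.8 points in HPC and -12.4 in blood, and the 6 from 1475947 to 1476015 averaged -17.4 and -15.8. On the minus strand, the 5 cytosines from 1475881 to 1475948 averaged -8.66 and -18.3, and the 4 from 1475975 to 1476039 averaged -18.0 and -13.3. The largest difference in blood lay here, at the plus-strand cytosine at 1476015, with 78 of 139 reads methylated (56.1%) in sGC and 88 of 112 (78.6%) in Con. The same cytosine had 78 of 140 (55.7%) and 82 of 109 (75.2%) in HPC.

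**Figure D3:**
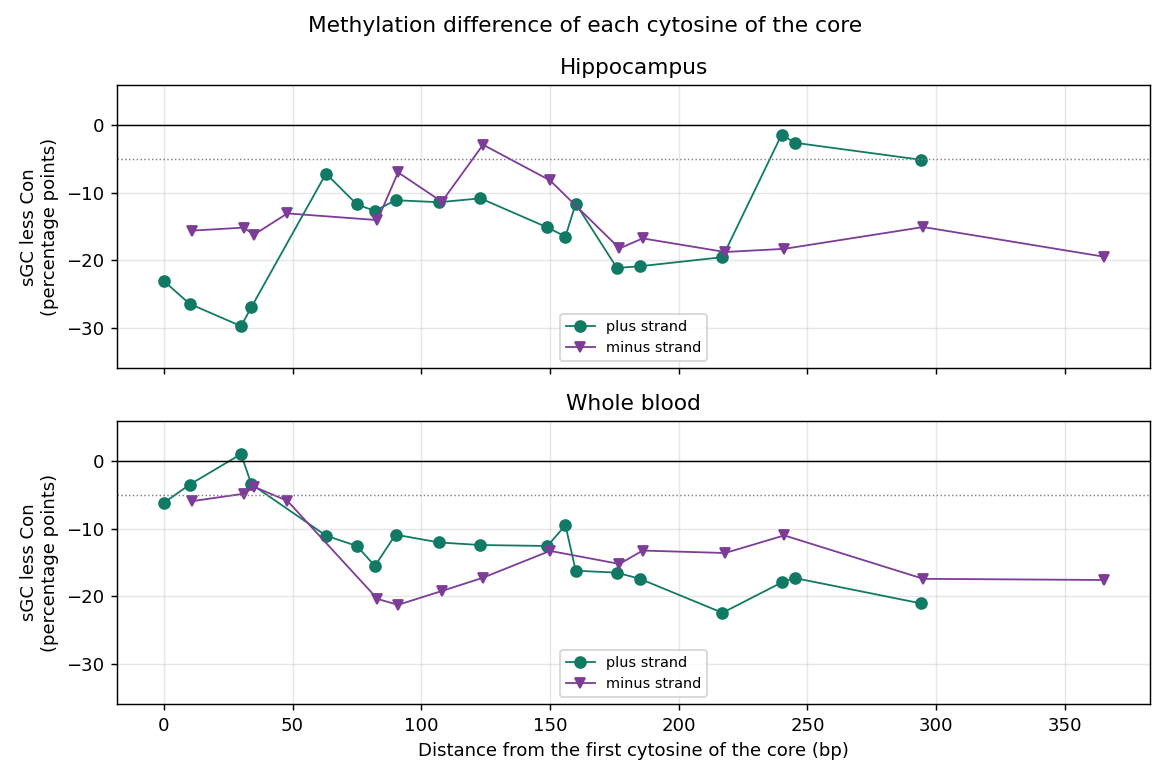
Methylation difference, sGC less Con in percentage points (y axis), at each of the 34 cytosines of the core against the distance in bp from the first (x axis), plus strand as circles and minus strand as triangles, with a dotted line at -5. In HPC the plus strand is lowest at the lower end, at -29.7, and near 0 toward the upper end, while in blood the differences are smallest at the lower end and reach -22.5 farther on.

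Nearly all differences were below 0 in both tissues. Across the 34 cytosines, a larger fall in HPC tended to go with a smaller one in blood (Pearson r -0.531, Spearman rho -0.391). The levels of the Con pools had an r of 0.0519 between the tissues and those of the sGC pools 0.356. These values describe 34 points that fall into 8 groups of neighbours with nearly the same reads, so that they are far fewer than 34 separate measurements, and each difference has the Con level of its own tissue in it.

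The 2 strands of a CpG gave a measure of how far such local differences can be read. Reads of either strand come from separate DNA strands, and at the 13 CpGs with both strands listed the difference between exposures was compared between them. In HPC, plus less minus averaged -2.68 points with an SD of 8.64 and ran from -14.6 to 16.9, and it exceeded 10 points in size at 4 CpGs. In blood it averaged 0.907 with an SD of 5.75, ran from -8.86 to 10.4 and exceeded 10 at 1. At the CpG at 1476038 the hippocampal difference was -1.35 on the plus and -18.3 on the minus strand, and the blood difference -18.0 and -11.0. The strands of this CpG thus lay as far apart in HPC as the tissues did on its plus strand.

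A test of the change itself between the tissues (z test of the log odds ratios, Benjamini-Hochberg adjustment over the 2564116 cytosines listed in both tissues) passed at 0 of the 34 cytosines of the core and at 0 of the 30 of the flanks, against 0.0103% of all. At an unadjusted p below 0.05 there were 7 in the core and 4 in the flanks, all 4 in the first cluster, against 4.14% of all. Since both changes in the core were seen when it was chosen, its count is a description, and the unlike profiles at the lower and the upper end were not shown to be a difference between the tissues.

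The loss was set against the borders of the intermediate level with the strands of a CpG added together. In HPC the CpGs with a difference of -5 points or lower ran from the first of the core, at 1475798, to the one at 1476038, which made 18 CpGs in a row. The next, at 1476043, stood at -2.56 and broke the run, and the last 2, at 1476092 and 1476162, stood at -11.2 and -19.4. In blood the first 4 CpGs stood at -6.17, -3.94, -1.61 and -2.86, so that the first passed and the next 3 did not, and an unbroken run began at 1475845 and went on to the last CpG of the core for 17 CpGs. The longest unbroken run shared by both tissues held 14 CpGs, from 1475845 to 1476038, and was shorter than the intermediate level at both ends. The first CpG of the core and the last 2 also stood at -5 or lower in both tissues, outside this run. Its upper end was set by the CpG at 1476043, which was listed on the plus strand only. With any value below 0 counted as a loss, the run shared by both tissues had the same first and last CpG as the intermediate level. In blood alone such a run went past both borders, from 1473983 to 1496706 over 24 CpGs listed in both tissues, where each of the 3 differences outside the core was above -5. The first CpG of the core rests on 56 to 77 reads per pool, and its interval in blood, given above, reaches past 0.

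Beyond the borders no loss was seen in the nearest clusters. The cluster from 1473940 to 1474014 differed by 2.48 points in HPC and by 1.05 in blood, both higher in sGC, with 1 of 5 and 2 of 4 of its cytosines lower. The unmethylated cluster at the upper end differed by 0.0725 in HPC and by 0.258 in blood, at levels that leave no room for a difference of -5. Fisher's exact test between sGC and Con was taken cytosine by cytosine (2-sided, Benjamini-Hochberg adjustment over all listed cytosines, adjusted p below 0.05 with at least 5 points). It called 0 of the 38 flank cytosines listed in HPC and 0 of the 36 in blood, against 0.112% and 0.317% of all. At such shares few calls could arise among so few cytosines, and 27 of them in each tissue lie in the unmethylated cluster. The counts of 0 therefore do not show that a loss was absent. In each tissue 1 flank cytosine had an unadjusted p below 0.05, against 5.09% and 5.64% of all. In the core the same rule called 2 of 34 in HPC, against 0.112% of all listed cytosines, and 5 of 34 in blood, against 0.317%. Those in HPC were the plus-strand cytosine at 1475828 and the minus-strand one at 1476163. Those in blood were the minus-strand cytosines at 1475881, 1475889, 1476093 and 1476163 and the plus-strand one at 1476092. These counts restate the choice of the core. A chi-square test was also run in place of the exact test, with its statistic divided by the inflation factor of the table (1.76 and 1.73). It called 0 of 34 in both tissues, against 0.0202% of all in HPC and 0.0491% in blood. The change of test and the division were not separated. With the strands of a CpG summed, the exact test called 7 of 21 core CpGs in HPC, against 0.195% of all CpGs. In blood 10 of 21 were called, against 0.551%. Fisher's exact test compares pools of reads and not animals.

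The first cluster, nearest to the lower limit of the window, differed in opposite directions in the tissues. The HPC readings were methylated at 376 of 530 (70.9%) in sGC and 278 of 358 (77.7%) in Con, which differed by -6.71, with 5 of 5 cytosines lower. The blood readings were methylated at 475 of 500 (95%) in sGC and 408 of 465 (87.7%) in Con, which differed by 7.26, with 5 of 5 cytosines higher. The strands of this cluster differ in level and depth, and taken apart they differed by -9.28 on the plus strand, as a mean over its cytosines, and by -7.26 on the minus strand in HPC, and by 6.47 and 15.9 in blood. Its 4 plus-strand cytosines share nearly the same reads, and none of the 5 passed the exact test between exposures in either tissue. At its first cytosine, at 1461032, the difference was -11.1 (Newcombe 95% interval -22.2 to 1.61) in HPC and 8.08 (-0.301 to 16.8) in blood, and the z test between the tissues gave an adjusted p of 0.978.

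Just outside the lower limit of the window, 28 cytosines from 1454174 to 1454452 were together higher in sGC in both tissues (22 of 25 listed in HPC and 24 of 27 in blood), at 35.8% (sGC) and 22.4% (Con) in HPC and at 94.96% and 86.2% in blood, and 0 of them passed the exact test (smallest adjusted p 0.0719 and 0.109), against 0.112% and 0.317% of all. At an unadjusted p below 0.05 there were 11 of 25 in HPC and 10 of 27 in blood, against 5.09% and 5.64% of all. The lower level of the core with sGC was not shared by these neighbours. On the scaffold as a whole, 2738 clusters had at least 4 cytosines listed in both tissues. Of these, 1 was at least 10 points lower in sGC in both tissues, against 0.0629% of such clusters over all scaffolds. That 1 is the core, which was chosen for this difference, so that the count restates the choice.

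The difference between the tissues within an exposure was not itself a criterion for the region, but the partly methylated level required of the core in both tissues limits how far apart they can lie. The values in the core are therefore a description too. The difference was small in the core, where the blood was above the hippocampus by 1.79 points in the Con pools and by 1.68 in the sGC pools. The median over the 34 cytosines was 1.42 in the Con pools, with values from -18.5 to 18.9 and 20 of 34 higher in blood, and -0.0312 in the sGC pools, with values from -6.99 to 12.6 and 17 of 34 higher.

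Cytosine by cytosine, Fisher's exact test (2-sided, Benjamini-Hochberg adjustment over the cytosines listed in both tissues) called 3 of 34 between blood and hippocampus in the Con pools, against 20.6% of all, with 7 at an unadjusted p below 0.05, which 27.9% of all had. All 3 were higher in blood. The minus-strand cytosine at 1475922 was methylated in 107 of 156 blood reads (68.6%) and 77 of 155 hippocampal reads (49.7%), a difference of 18.9. The 2 cytosines of the CpG at 1476092 differed by 14.96 on the plus strand and by 12.3 on the minus strand. In the sGC pools the exact test called 0 of 34, against 22.1% of all, with 2 at an unadjusted p below 0.05, which 29.1% of all had.

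The background of these counts was also taken over cytosines with the same kind of level. Of the 34 core cytosines, 28 were at 20% to 80% in all 4 pools, and these included the 3 called in Con. Among all 210450 such cytosines, blood and hippocampus differed at 27.2% in the Con pools and at 29% in the sGC pools. The share of the core, 3 of 28 and 0 of 28, lay below both. Neighbouring cytosines share nearly the same reads, so that these are not 28 independent tests.

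By the same exact test the only flank cytosines that differed between the tissues were those of the first cluster, in the sGC pools. In the Con pools 0 of 30 flank cytosines were called, against 20.6% of all, with 2 at an unadjusted p below 0.05, against 27.9% of all. In the sGC pools 5 of 30 were called, against 22.1% of all. Of the 30, 21 lie in the unmethylated last cluster, where the level leaves little room for a difference, so that the share was not read against the background. These 5 were all the cytosines of the first cluster, higher in blood by 21.5 to 33.0 points, with the smallest adjusted p of 1.81e-07 (exact test) at 1461062, where 106 of 108 blood reads and 85 of 118 hippocampal reads were methylated. In Con the same cluster was higher in blood by 10.1 points, and the smallest adjusted p was 0.114. The change of this gap between exposures did not pass the z test (smallest unadjusted p 0.0129, adjusted p 0.978). In the cluster next to the core, blood was above hippocampus by 2.19 points in the Con pools and 0.761 in the sGC pools.

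The core was set beside all clusters of the genome with at least 4 cytosines listed in both tissues, of which there were 182899. Of these 20263 (11.1%) were at 20% to 80% in all 4 pools, as the core was. The median difference between sGC and Con of these partly methylated clusters was 1.58 points in HPC and 0.429 in blood. Clusters at least 10 points lower in sGC in both tissues numbered 115 of 182899 (0.0629%), or 36 of the 20263 partly methylated ones (0.178%). Among the 28474 clusters with at least 20 cytosines there were 4 (0.014%), and the core was the largest of these by the number of cytosines. It was the 1 such cluster of the 3354 with at least 20 cytosines at 20% to 80% in all pools. As the core was chosen for its difference, these shares only place it.

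Between the tissues the core lay nearer to 0 than most partly methylated clusters. The size of the difference between blood and hippocampus had a median of 10.5 points in the Con pools and 10.3 in the sGC pools over the 20263 clusters, against 1.79 and 1.68 in the core. In 3816 of them (18.8%) the tissues lay within 5 points of each other in both exposures, and the core was among these. The clusters were not matched for size, and they hold as few as 4 cytosines, against 34 in the core. Single core cytosines ran from -18.5 to 18.9 in the Con pools, and values of opposite sign partly cancel in the sum.

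**Figure D4:**
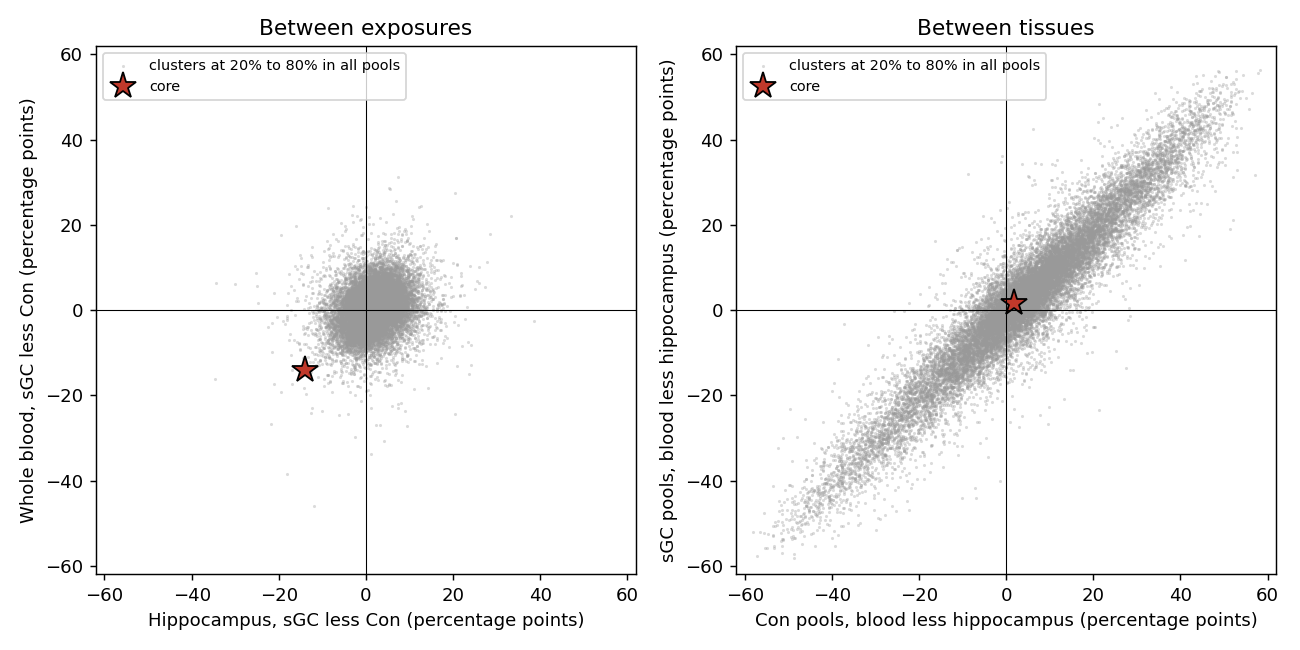
The core (star) among the 20263 clusters that were at 20% to 80% in all 4 pools (grey points), all axes in percentage points. The left panel plots sGC less Con in blood (y axis) against the hippocampus (x axis), where the core lies at -13.9 and -14.0, below and to the left of the cloud's centre. The right panel plots blood less hippocampus in the sGC pools (y axis) against the Con pools (x axis), where the core lies at 1.79 and 1.68, close to the origin.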

How the data were processed

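The authors trimmed single-end reads of 75 bp with Trim Galore and a NuGEN script and aligned them with Bismark to cavPor3. The submitters' processing notes name Bismark 0.16.0 and SAMtools 1.7. The authors deposited, per tissue and cytosine, methylated counts and coverage (all reads at that position), added up for the 6 animals per group and not normalized, each coverage at least 10. They also deposited an FDR from MethPipe for their own comparison, which was not used. Batches were not analysed here.

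The region, clusters and tests were chosen with earlier results of these data known. The sites named are the first, last and deepest cytosine of the core, the largest differences, those next to each edge and those called in the flanks, and those called in the core and the CpG at 1475921 were added after their values were seen. Levels are methylated counts over coverage. Fisher's exact test and its adjustment over the whole table were computed with purpose-written code, which was checked on simulated data and against scipy 1.17.1. The test between tissues added 0.5 to each count. Reads are not independent molecules or animals, so that 95% intervals (Wilson, and Newcombe for differences) cover counting error only. Alternatives changed coverage minimum, weighting, strand, read groups, cluster gap and thresholds. A further one replaced the exact test by a chi-square test with its statistic divided by an inflation factor. Neighbouring cytosines of a strand, at most 75 bp apart and with totals within 10% in all pools, formed a read group.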

Additional observations from a re-analysis of the deposited data

How the results depend on the processing

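No paired analysis was possible because the tables add the 6 animals of a group together, although the same animals gave both tissues, and for the same reason no animal could be left out. Of the alternatives, 107 values were counted as the same and 11 as moved. Those counted as the same include small flank differences that changed in sign or size. On the minus strand the upper cluster differed by -0.135 in HPC and -0.0966 in blood, against 0.0725 and 0.258 in the main setting. With equal weight per cytosine, the cluster next to the core differed by 0.00136 in blood, against 1.05. The difference of the core lay between -14.5 and -13.9 in HPC and between -14.5 and -12.9 in blood under each coverage, weighting, strand and read-group setting. In the first cluster the blood difference was 15.9 on the minus strand alone, which rests on 1 cytosine. With 30% to 70% as intermediate, that level ran from 1475845 to 1476038. The longest unbroken run of shared loss went from 1475958 to 1476015 at -10 points or lower and from 1475798 to 1476162 at any value below 0. With the strands of a CpG summed, the exact test called 7 of 21 core CpGs in HPC, against 0.195% of all CpGs, and 10 of 21 in blood, against 0.551%. Cytosine by cytosine, a chi-square test with its statistic divided by the inflation factor of the table (1.76 and 1.73) called 0 of 34 in both tissues. The window gave 6 clusters with gaps of 100 bp and 4 with gaps of 500 bp. Single core cytosines rest on 54 to 296 reads, and the intervals of most neighbours on a strand overlap, with exceptions in HPC at the CpG at 1475921 and, in Con, between the last 2 cytosines.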

Other observations

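Apart from the core, 3 clusters with at least 20 cytosines were at least 10 points lower in sGC in both tissues, found by that rule after the values were seen, and none was tested. On scaffold DS562882.1, 22 cytosines from 1011189 to 1011917 stood at 71.7% in sGC and 82.3% in Con in HPC, and at 69.9% and 83.6% in blood. On scaffold DS563105.1, 21 cytosines from 138294 to 138673 stood at 73.0% and 84.0% in HPC and at 75.01% and 88.6% in blood. On scaffold DS562916.1, 20 cytosines from 104985 to 105361 stood at 13.4% and 26.7% in HPC and at 24.2% and 35.6% in blood. Their genes were not analysed here.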
